A study of Homo sapiens with 4 samples.

Results

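The genes described here are 51 genes of the late cell cycle, from entry into mitosis to the separation of the daughter cells. They were taken by name from a fixed list and all of them were found among the 57768 gene entries with a value in each library. All 51 passed the filter on low values (a mean of at least 1 in FPKM, fragments scaled to transcript length and to the library's mapped fragments), as did 12491 genes in all. RNA-seq had been performed on cells labelled HepG2, which is a hepatoma line in wide use, and gave 2 wild-type (WT) and 2 C/EBPβ enh-/- libraries. In the C/EBPβ enh-/- cells both copies of an enhancer of the gene for C/EBPβ, a transcription factor enriched in the liver, had been deleted with CRISPR/Cas9. Both groups were grown in the same medium with no drug, and the sources used here do not state whether the C/EBPβ enh-/- cells were 1 clone or several, nor whether the 2 libraries of a group came from separate cultures. The p-values below therefore measure the spread between these libraries only, which may be technical.

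CEBPB, the gene whose enhancer was deleted, was at 30.6 in WT library 1, 19.2 in WT library 2, 12.4 in C/EBPβ enh-/- library 1 and 11.8 in C/EBPβ enh-/- library 2 (FPKM). The genotypes did not overlap, WT being higher, with a difference of -0.94 ± 0.27 (SE) in log2 fold change (limma adjusted p = 0.125), short of the threshold of 0.05. Of 21 liver markers, 20 were below an FPKM of 1 in every library, among them ALB at 0.0553 or less, and FOXA1 (1.23 to 2.09) was the exception, so the defining transcripts of liver cells were at or near 0 in all 4 libraries, which goes against the label HepG2. The label is kept here only as a name. The epithelial keratins KRT8 (231, 335, 82.6 and 90.04 in WT 1, WT 2, C/EBPβ enh-/- 1 and C/EBPβ enh-/- 2) and KRT18 (416, 461, 155 and 148) fell (limma adjusted p = 0.0325 and 0.0243), calls that were lost without any 1 of the libraries, where the log2 fold changes were -1.94 to -1.41 and -1.60 to -1.45, and with no filter, where 0 of all genes passed as lower, while EPCAM and CDH1 were near 0. Of the mesenchymal markers, VIM was at 232, 308, 190 and 138 and COL3A1 at 33.3, 31.9, 45.8 and 55.7 in the same order. That list held 5 markers, of which 4 were tested, and 2 of the tested ones had overlapping genotypes. C/EBPβ enh-/- library 1 stood apart from the other 3: its 5 highest genes took 35.1% of its summed FPKM, against 18.8% to 27.4% elsewhere. The files hold no read counts. Read from the spacing of the lowest values, its depth was about 0.554 times that of WT library 1, and that of WT library 2 and C/EBPβ enh-/- library 2 was about 1.12 and 1.22 times.

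A cell enters mitosis when CDK1 pairs with cyclin A or cyclin B and CDC25 phosphatases remove the inhibitory phosphates from it. Kinesins, kinetochores and the kinases PLK1 and Aurora A and B then build the spindle and attach the chromosomes, the spindle checkpoint holds anaphase back until all are attached, and the anaphase-promoting complex (APC/C) ends mitosis by marking cyclin B and securin for degradation. The messages of these proteins accumulate together in G2 and M phase. Many of their promoters share a CHR element (cell cycle genes homology region) bound by the MuvB core of the DREAM and MYBL2-containing complexes, together with CCAAT boxes bound by NF-Y, and FOXM1 adds to the late induction. In bulk RNA the share of cells in G2 and M phase and the amount of these messages per cell cannot be told apart.

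The promoter sequences below show what most of these genes share beyond their function. They are RefSeq windows on GRCh38.p14, from 250 bases before to 50 bases after an annotated start, printed 5′ to 3′ in the direction of the gene. The first 4 belong to the members with the largest log2 fold changes in size whose window held either motif, and the fifth to a member with neither. Capitals mark matches on either strand to the CHR hexamer TTTGAA or to the NF-Y pentamer CCAAT, which reads ATTGG on the other strand. KIF20A lies at chr5:138178862-138179161 on the plus strand, CDC25C (1 of 4 windows) at chr5:138331828-138332127 on the minus strand, MAD2L1 at chr4:120066799-120067098 on the minus strand, KIF4A at chrX:70289854-70290153 on the plus strand and MYBL2 at chr20:43666864-43667163 on the plus strand.
KIF20A: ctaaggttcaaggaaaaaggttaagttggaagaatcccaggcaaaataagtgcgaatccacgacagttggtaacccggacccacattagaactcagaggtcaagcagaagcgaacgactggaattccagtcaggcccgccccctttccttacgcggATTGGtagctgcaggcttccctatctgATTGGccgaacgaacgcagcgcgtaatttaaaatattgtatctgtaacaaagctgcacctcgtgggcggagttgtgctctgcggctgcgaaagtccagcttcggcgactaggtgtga
CDC25C: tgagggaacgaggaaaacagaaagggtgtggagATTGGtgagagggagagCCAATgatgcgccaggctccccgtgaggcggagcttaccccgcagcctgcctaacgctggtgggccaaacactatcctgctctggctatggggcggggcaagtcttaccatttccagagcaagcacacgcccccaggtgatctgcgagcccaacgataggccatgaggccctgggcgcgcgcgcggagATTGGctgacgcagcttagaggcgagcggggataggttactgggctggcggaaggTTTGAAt
MAD2L1: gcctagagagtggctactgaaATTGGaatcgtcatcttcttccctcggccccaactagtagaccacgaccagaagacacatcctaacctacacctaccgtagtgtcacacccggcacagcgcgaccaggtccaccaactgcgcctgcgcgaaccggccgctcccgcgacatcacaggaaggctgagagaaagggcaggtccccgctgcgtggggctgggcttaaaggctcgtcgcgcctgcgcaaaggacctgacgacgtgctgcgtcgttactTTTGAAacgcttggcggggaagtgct
KIF4A: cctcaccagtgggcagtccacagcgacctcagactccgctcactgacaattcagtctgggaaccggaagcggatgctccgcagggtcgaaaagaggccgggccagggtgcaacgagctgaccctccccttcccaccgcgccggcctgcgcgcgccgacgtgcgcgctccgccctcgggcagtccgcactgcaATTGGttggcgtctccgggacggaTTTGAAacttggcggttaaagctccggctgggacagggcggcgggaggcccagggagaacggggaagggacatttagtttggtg
MYBL2: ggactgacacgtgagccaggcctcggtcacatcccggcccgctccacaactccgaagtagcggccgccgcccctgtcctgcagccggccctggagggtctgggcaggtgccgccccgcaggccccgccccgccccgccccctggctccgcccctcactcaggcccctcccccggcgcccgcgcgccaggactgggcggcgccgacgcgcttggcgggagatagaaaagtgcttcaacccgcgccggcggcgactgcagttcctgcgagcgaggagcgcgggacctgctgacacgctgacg

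KIF20A carried 2 CCAAT pentamers, centred 92 and 65 bases before its start, and no CHR hexamer. KIF4A had the pair in close order, a CCAAT match 56 bases and a CHR hexamer 32 bases before the start. In MAD2L1 the hexamer lay 26 bases after the start and in the CDC25C window 45 bases after it.

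A window was found for 44 of the 51 genes, the others being AURKA, BUB3, TTK, FOXM1, TPX2, BIRC5 and UBE2C. The CHR hexamer was present for 33 of the 44 (75.0%), against 13.7% of the 9462 tested genes with a window and 18.2% of all 27305 genes with one. A CCAAT match was present for 36 of the 44 (81.8%), against 44.1% of tested genes. Both stood in 1 window for 27 (61.4%), against 5.94% of tested genes. The variant hexamer TTCGAA was found for 3 genes, CDC25B, BUB1 and NDC80. MYBL2, KIF2C and CENPE had neither the CHR hexamer nor CCAAT in these windows. Matches that shared bases with another match were found in 5 of the 56 windows of these genes.

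The 2 motifs sat at different distances. Of the 49 CHR hexamers, 35 (71.4%) lay within 50 bases of the start, against 27.5% of the hexamers of tested genes. Of the 82 CCAAT matches, 40 (48.8%) lay from 100 to 50 bases before the start, against 31.8% of those of tested genes. Of 51 matched genes of the G1/S transition and DNA replication, tested or not, 42 had a window. Among these the CHR hexamer was found for 3 (7.14%) and CCAAT for 59.5%. These are matches of letters, not measured binding.

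None of the 51 genes passed an adjusted p of 0.05 between C/EBPβ enh-/- and WT cells in limma, where 1.21% of all tested genes passed as lower and 0.248% as higher. At an unadjusted p under 0.05, HMMR and MYBL2 were lower (16.9% of all tested genes) and KIF20A was higher (3.86%). With the library number as a block none of these 3 stayed under an unadjusted p of 0.05, and KIF20A did not without the trend or with no filter either. HMMR and MYBL2 did not after centring or after rescaling without the 5 highest genes. Log2 fold changes ran from -0.56 in HMMR to 0.98 in KIF20A, with a median of 0.26 against -0.14 over all tested genes. Of the 51, 39 were above 0, against 37.4% of all tested genes. In both C/EBPβ enh-/- libraries 13 genes (25.5%) exceeded both WT values, against 15.1% of all tested genes: CCNA2, CDC25B, CDC25C, MAD2L1, KIF18A, KIF20A, KIF4A, CENPE, CENPN, SPC25, ANLN, NUSAP1 and PTTG1. Only HMMR and MYBL2 lay below both WT values in both, against 37.5% of all tested genes, and the other 36 overlapped. Centring each library on its median tested gene moved the median of all genes by 0.17 on the log2 scale. The median of these genes relative to all genes was 0.40, which centring cannot change, but after it 34 of them lay above both WT values in both C/EBPβ enh-/- libraries, against 28.1% of all tested genes.

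**Figure D1:**
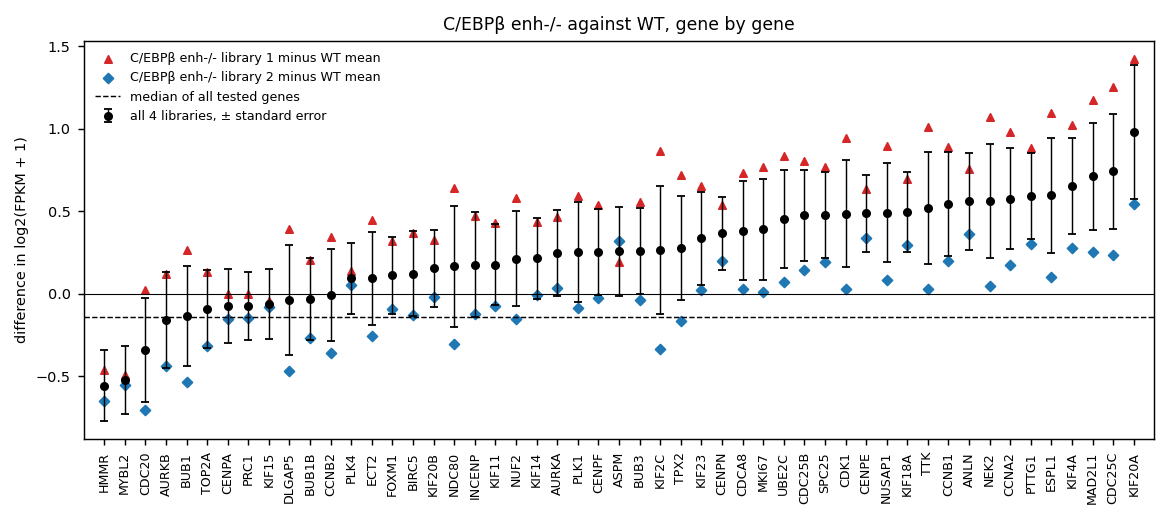
Difference in log2(FPKM + 1) from the WT mean (y axis) for each mitotic and G2/M gene (x axis), ordered by the difference over all 4 libraries (black, with the standard error from limma). Triangles are C/EBPβ enh-/- library 1, diamonds library 2, and the dashed line is the median of all tested genes at -0.14. The triangles lie above the diamonds for all genes but ASPM.

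For most of these genes the 2 C/EBPβ enh-/- libraries differed from each other. Library 1 was above library 2 for 50 of 51 genes (58.9% of all tested genes), all but ASPM, with a median difference of 0.63 on the log2 scale against 0.094 over all genes. It was over 1.5 times library 2 for 30 of them (58.8%, against 16.4% of all tested genes), and the reverse held for 0. Library 1 gave the highest of the 4 values for 43 (84.3%, against 28.8%), the exceptions being CDC20, AURKB, MYBL2, CENPA and PRC1, highest in WT library 2, KIF15 and HMMR, highest in WT library 1, and ASPM. After rescaling to the same total the median difference was 0.30, against -0.20 over all genes. Library 1 was then above library 2 for 43 (30.8% of all tested genes) and the highest of the 4 for 36 (15.9%).

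As deposited, C/EBPβ enh-/- library 2 lay near the WT libraries, with a median difference from the WT mean of -0.0095, against -0.19 over all tested genes, while that of library 1 was 0.58. The position of library 2 depended on the scale, as did that of all tested genes, given in brackets. Its median was 0.14 after rescaling to the same total (-0.055) and 0.26 after rescaling without the 5 highest genes (0.058). It was 0.22 after centring (0.033) and 0.17 after the correction for GC content and length (0.022). On each of these scales it was above the median of all tested genes. As deposited, library 2 lay between the 2 WT values for 18 genes (23.8% of all tested genes did so), below both for 19 (54.5% of all tested genes) and above both for 14 (21.7%). Without C/EBPβ enh-/- library 1 the median log2 fold change was -0.0095, with 25 of 51 above 0 (4039 of 12491 tested genes), and without library 2 it was 0.58. The WT libraries differed less, with WT library 2 higher for 41 of 51 (50.8% of all tested genes) and a median difference of 0.16.

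The summed FPKM of the 51 genes was 1709.6 in WT library 1 and 1989.8 in WT library 2, and reached 2809 in C/EBPβ enh-/- library 1 but 1808 in library 2. As a share of each library's total without its 5 highest genes this was 0.403% and 0.457% in WT cells and 0.705% and 0.515% in C/EBPβ enh-/- cells, so on that scale both C/EBPβ enh-/- libraries exceeded both WT libraries, library 2 by little. The excess of library 1 over library 2 relative to all genes was 0.53 as deposited, 0.50 after rescaling to the same total, 0.52 without the 5 highest genes, 0.53 after centring and 0.63 with no filter on low values. The macrophage marker CD68 also moved with this library, at an FPKM of 7.79 in it and of 2.17 to 3.98 elsewhere, while the leukocyte markers CD3E and PTPRC were listed at 0 and below 0.06 in every library. Its share taken by the highest genes, its lower depth and this marker moved with the values of the mitotic genes, and their part in the result was not tested.

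**Figure D2:**
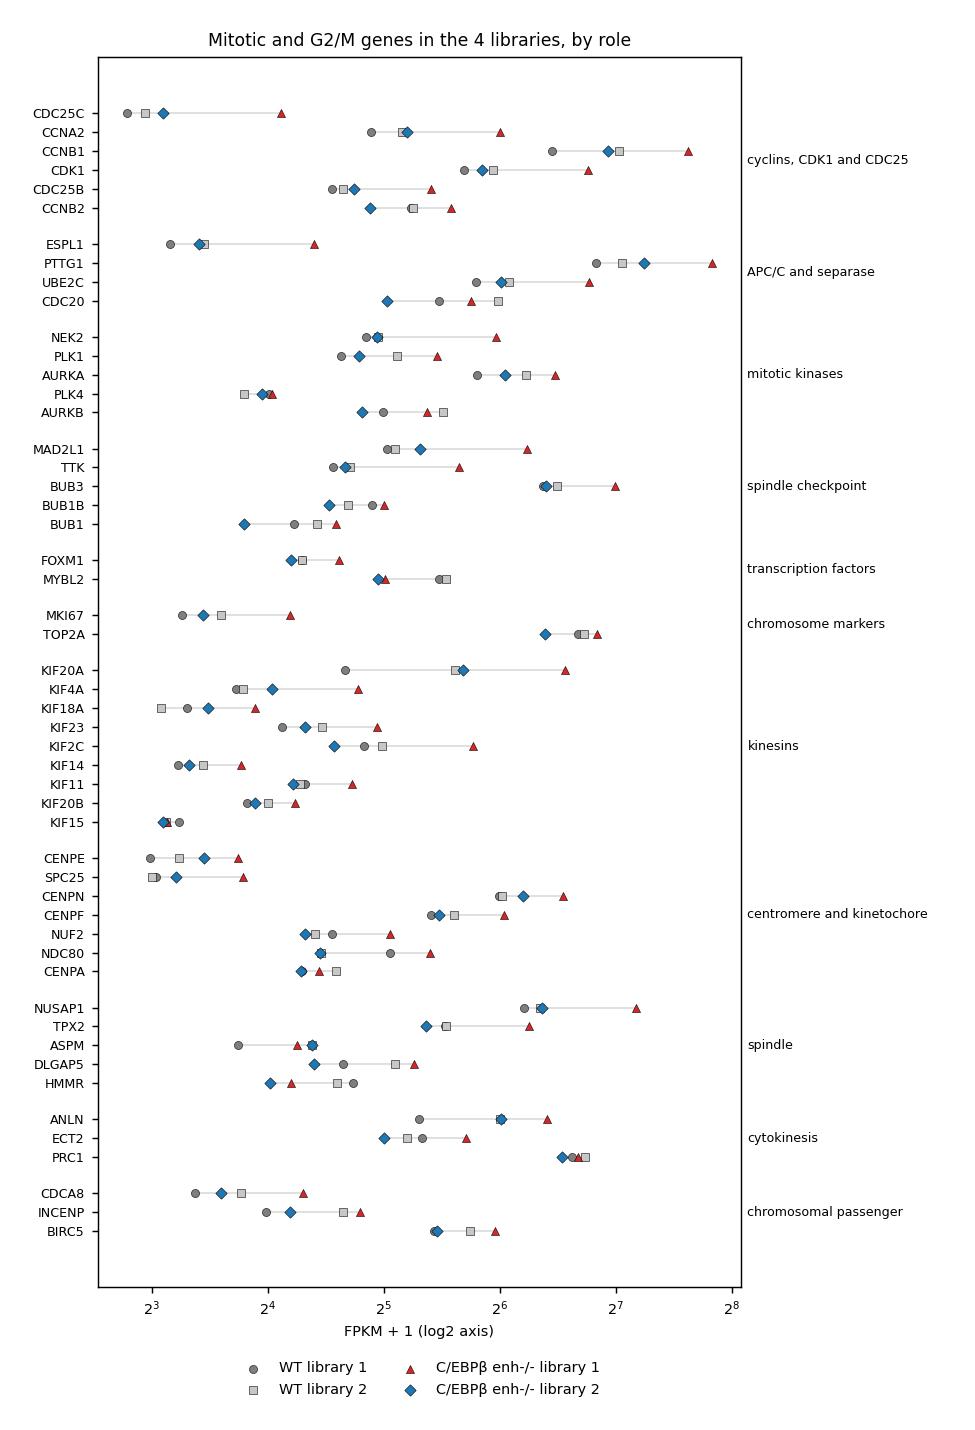
FPKM + 1 of each mitotic and G2/M gene on a log2 axis (x axis), by role (y axis), 1 point per library and a grey line from the lowest to the highest. C/EBPβ enh-/- library 1 (triangles) is the highest point for 43 of 51 genes, and library 2 (diamonds) lies between the WT points for 18, below both for 19 and above both for 14.

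Among the cyclins, CDK1 and the CDC25 phosphatases, all 6 genes were highest in C/EBPβ enh-/- library 1. CDC25C (chr5:137620958-137674044 on GRCh37), which activates CDK1 at mitotic entry, was at 5.89 in WT library 1, 6.68 in WT library 2, 16.3 in C/EBPβ enh-/- library 1 and 7.55 in library 2 (log2 fold change 0.74 ± 0.35 SE, limma adjusted p = 0.28). Library 2 thus lay just above WT and library 1 well above it. CCNA2 (cyclin A2) was at 28.7, 34.7, 63.1 and 35.8, and CDC25B at 22.4, 24.1, 41.4 and 25.8, in the order WT 1, WT 2, C/EBPβ enh-/- 1 and C/EBPβ enh-/- 2 that is kept from here on. For both, the genotypes did not overlap, but C/EBPβ enh-/- library 2 was close to WT. CDK1 itself was at 50.8, 60.4, 107 and 56.5, and CCNB1 (cyclin B1) at 86.7, 129, 197 and 121. For both, library 2 lay between the WT values. CCNB2 (cyclin B2) was at 36.6, 37.0, 47.0 and 28.5, with C/EBPβ enh-/- libraries on either side of WT (log2 fold change -0.0073 ± 0.28 SE, limma adjusted p = 0.991).

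Of the genes that end mitosis, PTTG1 (securin, the inhibitor of separase) had the highest FPKM of the 51 genes in every library, 113, 132, 226 and 151 (log2 fold change 0.59 ± 0.26 SE, limma adjusted p = 0.26). ESPL1 (separase, the protease that opens cohesin) was at 7.92, 9.93, 20.1 and 9.59 (log2 fold change 0.60 ± 0.35 SE, limma adjusted p = 0.372). For securin both C/EBPβ enh-/- libraries exceeded WT, and for separase only library 1 did. UBE2C, the ubiquitin-conjugating enzyme of the APC/C, was at 54.6, 66.8, 108 and 63.6. CDC20, the coactivator that the spindle checkpoint restrains, had the opposite sign: it was at 43.6, 62.5, 52.9 and 31.6 (log2 fold change -0.34 ± 0.32 SE, limma adjusted p = 0.572). Its C/EBPβ enh-/- library 2 was below both WT values and library 1 between them.

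Of the 5 mitotic kinases, none had C/EBPβ enh-/- values clear of WT. NEK2, a kinase of centrosome separation, was at 27.7, 29.9, 61.7 and 29.8 (log2 fold change 0.56 ± 0.35 SE, limma adjusted p = 0.401), and C/EBPβ enh-/- library 2 lay between the WT values. PLK4, the kinase of centriole duplication, hardly varied, at 15.1, 12.9, 15.4 and 14.5 (log2 fold change 0.093 ± 0.22 SE, limma adjusted p = 0.842). PLK1 was at 23.8, 33.6, 43.1 and 26.6. Aurora A (AURKA), which matures the spindle poles, was at 55.0, 73.8, 88.3 and 65.2. Aurora B (AURKB), the kinase of the chromosomal passenger complex, was at 30.8, 44.7, 40.4 and 27.1, and so was highest in a WT library.

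The other chromosomal passenger subunits, INCENP, BIRC5 (survivin) and CDCA8 (borealin), were each highest in C/EBPβ enh-/- library 1, with library 2 between the WT values. CDCA8 was at 9.35, 12.7, 18.7 and 11.1 (log2 fold change 0.38 ± 0.30 SE, limma adjusted p = 0.513). INCENP was at 14.8, 24.1, 26.7 and 17.3. BIRC5 was at 42.2, 52.5, 61.1 and 43.0, with 0.12 ± 0.26 (SE, limma adjusted p = 0.828).

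In the spindle checkpoint, MAD2L1 (chr4:120976778-120988013 on GRCh37), which binds and holds CDC20, was at 31.6, 33.2, 74.1 and 38.7. Its mean was 32.4 ± 1.13 (SD, n = 2) for WT against 56.4 ± 25.1 (SD, n = 2) for C/EBPβ enh-/- (log2 fold change 0.71 ± 0.32 SE, limma adjusted p = 0.268). The SD of the C/EBPβ enh-/- libraries was as large as the difference between the means. The kinase TTK was at 22.6, 25.1, 49.1 and 24.3 and BUB3 at 81.9, 89.2, 126 and 83.2, with library 2 between the WT values for both. BUB1 (17.7, 20.5, 23.1 and 12.9) and BUB1B (28.9, 24.8, 31.0 and 22.0) had C/EBPβ enh-/- values on both sides of WT. BUB1B had the smallest log2 fold change of the group, -0.033 ± 0.25 (SE, limma adjusted p = 0.955).

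MYBL2 and HMMR were the 2 genes for which WT exceeded C/EBPβ enh-/- cells in every library. MYBL2 (B-MYB; chr20:42295659-42345135 on GRCh37), the transcription factor that joins the MuvB core to switch on mitotic genes, was at 43.6, 45.5, 31.3 and 30.0, or 44.5 ± 1.32 (SD, n = 2) for WT against 30.6 ± 0.928 (SD, n = 2) for C/EBPβ enh-/-. Its log2 fold change was -0.53 ± 0.21 (SE, limma adjusted p = 0.215) and it was negative in every alternative tried, from -0.56 to -0.31. HMMR (chr5:162887209-162918947 on GRCh37), a microtubule-binding protein of the spindle poles, was at 25.7, 23.2, 17.4 and 15.2 (log2 fold change -0.56 ± 0.22 SE, limma adjusted p = 0.208), negative in every alternative, from -0.65 to -0.37. For both, the C/EBPβ enh-/- libraries were closer to each other than to either WT library. FOXM1, the other late cell cycle transcription factor, was at 18.7, 18.7, 23.5 and 17.4 (log2 fold change 0.11 ± 0.23 SE, limma adjusted p = 0.826), with C/EBPβ enh-/- values on both sides of WT.

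The proliferation marker MKI67 was at 8.58, 11.1, 17.3 and 9.84 (log2 fold change 0.39 ± 0.31 SE, limma adjusted p = 0.509). TOP2A, the topoisomerase that untangles sister chromatids, was at 101, 105, 113 and 82.7, with -0.092 ± 0.24 (SE, limma adjusted p = 0.861). Neither marker of cycling cells separated the genotypes.

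Of the 9 kinesins, KIF20A, KIF4A and KIF18A had both C/EBPβ enh-/- values above WT. KIF20A (chr5:137514408-137523412 on GRCh37), which acts at the central spindle in cytokinesis, had the largest log2 fold change of the 51 genes, at 24.4, 48.1, 93.7 and 50.4. That change was 0.98 ± 0.41 (SE, limma adjusted p = 0.233), but WT library 2 and C/EBPβ enh-/- library 2 were close and the WT libraries differed by 0.95. KIF4A (chrX:69509954-69640736 on GRCh37), a chromosome-bound motor of the midzone, was at 12.2, 12.8, 26.5 and 15.4 (log2 fold change 0.65 ± 0.29 SE, limma adjusted p = 0.262). KIF18A, which dampens chromosome movement at the metaphase plate, was at 8.87, 7.48, 13.8 and 10.2. KIF2C, a microtubule depolymerase at the centromere, gave the widest gap on the log2 scale between the C/EBPβ enh-/- libraries of all 51 genes, with FPKM of 53.5 against 22.7 (27.4 and 30.6 in WT). KIF11 (Eg5; 18.9, 18.3, 25.5 and 17.6), KIF14 (8.34, 9.89, 12.6 and 9.02), KIF20B (13.1, 15.04, 17.9 and 13.8) and KIF23 (16.4, 21.2, 29.8 and 18.9) were highest in C/EBPβ enh-/- library 1 too, with log2 fold changes from 0.15 to 0.34. KIF15 was nearly flat at 8.42, 7.71, 7.77 and 7.55 (log2 fold change -0.064 ± 0.21 SE, limma adjusted p = 0.892).

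At the kinetochore, CENPE, the motor that carries chromosomes to the plate, was at 6.92, 8.43, 12.4 and 9.93 (log2 fold change 0.49 ± 0.23 SE, limma adjusted p = 0.287). CENPN (62.7, 64.0, 92.2 and 72.7), which reads the centromeric nucleosome, and SPC25 (7.21, 7.02, 12.8 and 8.26), of the NDC80 complex, had both C/EBPβ enh-/- values above WT as well. For NDC80 and NUF2, of the same complex, they did not: NDC80 was at 32.2, 21.0, 41.1 and 20.8, and NUF2 at 22.5, 20.2, 32.3 and 19.0. CENPF was at 41.3, 47.6, 64.8 and 43.5. CENPA, the histone that marks the centromere, was at 18.6, 23.1, 20.7 and 18.6 (log2 fold change -0.077 ± 0.23 SE, limma adjusted p = 0.879).

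Among the other spindle genes, NUSAP1, which bundles microtubules near chromatin, was at 72.8, 80.5, 143 and 81.2. TPX2, the activator of Aurora A, was at 45.2, 45.4, 75.3 and 40.2. ASPM, which focuses the spindle poles, was alone in being lower in C/EBPβ enh-/- library 1 than in library 2, at 12.4, 19.8, 18.1 and 19.8. DLGAP5, which stabilises kinetochore fibres, was at 24.0, 33.1, 37.3 and 20.1 (log2 fold change -0.039 ± 0.33 SE, limma adjusted p = 0.96). Of the genes of cytokinesis, ANLN, the scaffold of the contractile ring, was at 38.5, 62.9, 83.8 and 63.6 (log2 fold change 0.56 ± 0.30 SE, limma adjusted p = 0.33), and its C/EBPβ enh-/- library 2 barely exceeded WT library 2. ECT2, which activates RhoA at the cell equator, was at 39.2, 35.7, 51.3 and 31.1. PRC1, which bundles the central spindle, was at 97.9, 106, 101 and 91.7 (log2 fold change -0.075 ± 0.21 SE, limma adjusted p = 0.871).

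Other genes of the cell cycle were set beside these 51. None of the genes in the 6 further lists passed the threshold in limma, although ANAPC1 and TK1 did when protein-coding genes alone were tested (4.19% of those genes passed as lower), and for each list the number at an unadjusted p under 0.05 is given, to be read against 16.9% of all tested genes lower and 3.86% higher. Medians are as deposited, followed by the same value less the all-gene median. Further mitotic genes, 64 tested, had a median log2 fold change of 0.16 (0.30 relative to all genes, 2 lower and 7 higher at the unadjusted p), which was -0.17 without C/EBPβ enh-/- library 1 and 0.49 without library 2. The gap between the C/EBPβ enh-/- libraries recurred in them, with a median of 0.62, library 1 higher for 55 of 64 and over 1.5 times library 2 for 35. The largest changes clear of WT were those of CDCA2 (7.80, 10.8, 27.3 and 14.1), ERCC6L (1.92, 3.32, 7.82 and 4.20), CENPI (9.85, 10.9, 28.1 and 14.5) and KIFC1 (12.3, 19.9, 40.7 and 20.3).

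In the 50 tested genes of the G1/S transition and replication, an earlier wave of cell cycle transcription, C/EBPβ enh-/- library 1 exceeded library 2 for 25 of 50, with a median gap of 0.0038, and the median log2 fold change was -0.30 (-0.16 relative to all genes). Without WT library 2 that median was -0.17 (-0.031 relative to all genes). In this list 9 genes were lower (18.0%) and 2 higher (4.0%) at the unadjusted p, near the shares of all tested genes. Cyclin D1 (CCND1) was at 27.4, 45.3, 13.9 and 16.6 and thymidine kinase 1 (TK1) at 69.7, 93.8, 40.9 and 33.9. For these, both C/EBPβ enh-/- values were below WT. MCM5, a subunit of the replicative helicase, was lower too (74.2, 143, 43.6 and 70.1), and E2F8, a repressor of E2F targets, was higher (0.695, 0.822, 2.91 and 1.72). CCND1, TK1, MCM5 and E2F8 were chosen from genes whose genotypes did not overlap. Over the list 22 of 50 genes lay below both WT values in both C/EBPβ enh-/- libraries, against 37.5% of all tested genes. Another 5 of 50 lay above both WT values in both, against 15.1%.

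The 15 tested subunits and coactivator of the APC/C had a median of -0.12 (0.018 relative to all genes, 3 lower and 0 higher at the unadjusted p) and a median gap between the C/EBPβ enh-/- libraries of 0.064. ANAPC1, its largest scaffold subunit, was at 27.2, 22.9, 12.2 and 10.5, CDC27 at 30.1, 27.2, 15.7 and 21.4, ANAPC7 at 59.2, 61.4, 42.4 and 40.5, and ANAPC16 at 50.98, 38.4, 28.2 and 36.5. These were chosen from genes whose genotypes did not overlap, and all of them lay below WT in both C/EBPβ enh-/- libraries. Over the list 6 of 15 (40.0%) did so, against 37.5% of all tested genes, and 1 (6.67%) lay above both WT values, against 15.1%. The 21 cohesin and condensin genes (2 lower and 0 higher) had a median of -0.048 (0.092 relative to all genes) and a median gap of 0.19. That median was 0.023 without WT library 1, 0.0047 without WT library 2, -0.11 without C/EBPβ enh-/- library 1 and 0.097 without C/EBPβ enh-/- library 2. The condensin subunits pointed in opposite directions. NCAPH was at 18.0, 23.9, 12.3 and 9.69 and NCAPG at 33.1, 34.1, 69.6 and 39.7. The cohesin regulators PDS5B (8.80, 8.51, 5.45 and 5.56) and WAPL (20.3, 15.3, 12.6 and 11.8) were lower in both C/EBPβ enh-/- libraries. Over that list 5 genes lay below both WT values in both C/EBPβ enh-/- libraries and 5 above (23.8% each).

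The 17 tested genes of the MuvB, DREAM and NF-Y complexes, which include the factors that bind the promoter motifs shown above, had a median of -0.068 (0.072 relative to all genes, 4 lower and 1 higher) and a median gap of 0.035. The median was 0.058 without WT library 1 and -0.24 without WT library 2. Of the NF-Y subunits, NFYC was at 20.9, 14.0, 8.82 and 8.44 and NFYA at 3.56, 4.22, 10.3 and 6.39, on opposite sides of WT. TFDP1, the partner of E2F proteins, was at 49.6, 64.8, 29.7 and 37.3, and RB1 at 20.6, 15.7, 11.2 and 11.7. The 15 cell cycle inhibitors had a median of 0.064 (0.20 relative to all genes, 0 lower and 2 higher), which was -0.21 without C/EBPβ enh-/- library 1, -0.044 without WT library 1 and -0.040 with the filter at a mean FPKM of 5. Their gap between the C/EBPβ enh-/- libraries had a median of 0.58, with library 1 higher for 14 of 15. CDKN2D was at 1.94, 1.62, 13.2 and 3.20, CDKN2C at 15.6, 17.4, 34.8 and 24.1, and CDKN2A at 54.7, 75.4, 51.5 and 43.2.

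**Figure D3:**
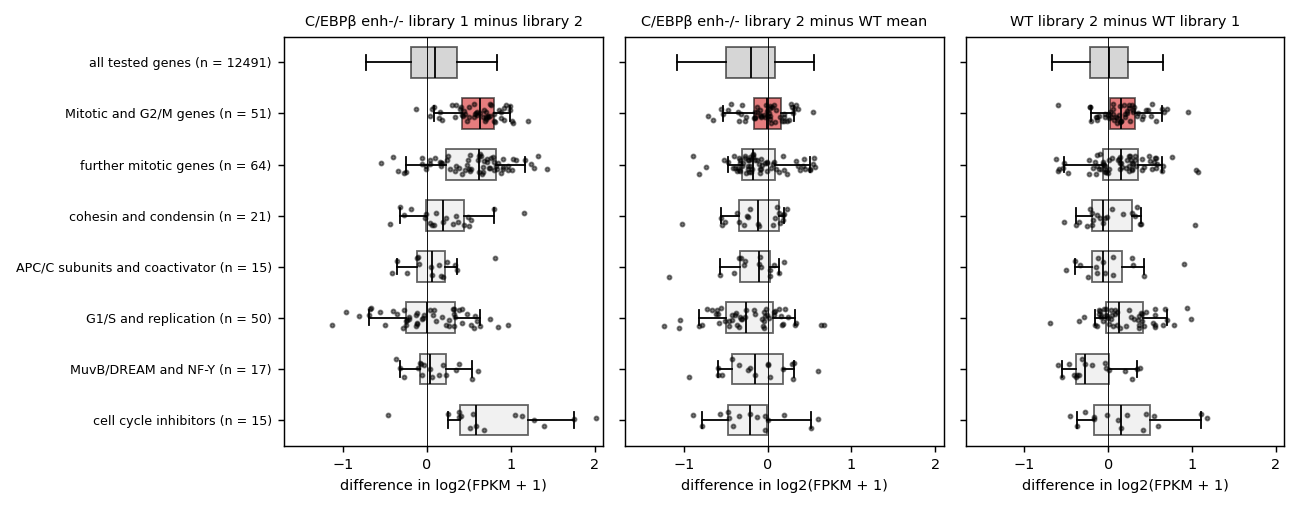
Differences in log2(FPKM + 1) (x axis) between the C/EBPβ enh-/- libraries, between C/EBPβ enh-/- library 2 and the WT mean, and between the WT libraries, for all tested genes and each list (y axis). Boxes are quartiles with the median, the whiskers leave out the most extreme genes at each end and dots are single genes. The gap between the C/EBPβ enh-/- libraries is centred on 0.63 for the mitotic and G2/M genes and on 0.0038 for G1/S and replication genes.

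The gap between the C/EBPβ enh-/- libraries was also read in genes that share the promoter motifs but are not among the 51. These still include the further mitotic genes, of which 21 had both motifs in 1 window. For the 535 other tested genes with a CHR hexamer and a CCAAT match in 1 window the median difference between C/EBPβ enh-/- libraries 1 and 2 was 0.15, 0.10 for 732 whose CHR hexamer had no CCAAT match in the same window, 0.12 for 3430 with CCAAT alone and 0.073 for 4721 with neither. Among the 51 genes it was 0.63 for the 27 with both, 0.43 for the 6 whose CHR hexamer had no CCAAT match in the same window (PLK4 among them had one in another window), 0.74 for the 8 with CCAAT alone and 0.29 for the 3 with neither. These medians are a description, and no test was made of them.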

How the data were processed

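The comparison used 4 RNA-seq libraries, 2 per genotype, and their genotype and number come from the titles and genotype fields of the labels. For every gene the authors deposited an FPKM value in each library. The submitters' processing notes list TopHat2 2.0.13, Cufflinks and edgeR with the build hg19, without roles or order, and the labels' extraction text describes chromatin rather than RNA. Whether the libraries were scaled to each other is not given in the sources used here. FPKM is relative to the other genes of a library, so a few very high genes lower all others.

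Of 57815 entries per file, 57768 remained after leaving out the pseudoautosomal copies on chromosome Y, and 55535 matched a symbol. UHRF1 and PECAM1, on the lists used for comparison, were not matched. Gene coordinates are those of GENCODE release 44 lifted to GRCh37.

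On the log2(FPKM + 1) scale (pseudocount 1), the genotypes were compared in limma 3.58.1 under R 4.3.3, using lmFit and the trended eBayes, for the 12491 genes whose values averaged 1 or more. Tests were two-sided, p-values were adjusted by Benjamini-Hochberg over all these genes, and the threshold was 0.05. Fold changes on this scale understate the change of low genes. The fit was tested on simulated data. Lists were described by counts and medians beside those of all tested genes, without a test. Counts of genes above or below WT compare the 2 values of each genotype.

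The genes, lists and comparisons were chosen with earlier results of these data known. Named in full were, in each role, the genes with the largest and the smallest log2 fold change in size, any past the threshold, and from each other list up to 4 of the largest changes among genes whose genotypes did not overlap, together with CEBPB. The other members were named with their values as well. Relative depth was read from the most frequent ratio of values under an FPKM of 0.3 between libraries and is approximate. No intervals for counting error can be given without counts. Promoter windows of 300 bases from RefSeq (GRCh38.p14) were searched on both strands with Python 3.11.15, and distances run from the annotated start to the centre of a match. Figures were made with matplotlib 3.10.9. Other settings tried were an untrended fit, a pseudocount of 0.1, no filter, a filter at a mean of 5, a common total per library (with or without the 5 highest genes), centring, the replicate block, a loess adjustment for GC content and transcript length alone or joined to the block, protein-coding genes only, genes never listed at 0, and the omission of each library in turn. A marker on these lists is not reported here.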

Additional observations from a re-analysis of the deposited data

How the results depend on the processing

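None of the 51 mitotic and G2/M genes passed the threshold in any of 16 alternatives, the lowest adjusted p (limma) being 0.118 for CDC25C and MAD2L1 without C/EBPβ enh-/- library 2. With 1 library left out, the remaining one of its genotype is assumed to vary like the other genotype, so these p-values say little about stability. The number at an unadjusted p under 0.05 was less stable: 0 lower and 17 higher after rescaling without the 5 highest genes (9.89% and 9.35% of all tested genes), 0 and 15 after centring (10.1% and 9.14%), 0 and 19 without C/EBPβ enh-/- library 2 (15.1% and 7.41%), 2 and 0 without the trend (16.6% and 3.95%), and 0 and 0 with the replicate block (16.1% and 3.75%). The number with both C/EBPβ enh-/- values above both WT values was 25 after rescaling to the same total (16.4% of all tested genes), 34 after rescaling without the 5 highest genes (28.1%), 34 after centring (28.1%) and 33 after the correction for GC content and length (28.5%). The median log2 fold change ranged from -0.0095 (without C/EBPβ enh-/- library 1) to 0.58 (without C/EBPβ enh-/- library 2) when 1 library was left out, and relative to all genes from 0.18 to 0.68. With no filter on low values the median relative to all genes was 0.26, against 0.40 in the main fit. The sign of the log2 fold change was the same in all settings for 25 genes and differed in at least 1 for 26, most often without C/EBPβ enh-/- library 1 (14 genes).

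The medians of the other lists were followed across settings relative to all tested genes, a choice made after the values were seen, since centring moved all genes by 0.17. As deposited and unadjusted for that, the medians of the APC/C, cohesin and condensin, and MuvB and NF-Y lists changed sign on centring (to 0.053, 0.13 and 0.11). Without a filter, where the median of all genes was near 0, the relative medians were -0.12 for the APC/C, -0.047 for cohesin and condensin, -0.066 for MuvB and NF-Y (from 0.018, 0.092 and 0.072) and -0.30 for G1/S genes (from -0.16). Those of further mitotic genes and the cell cycle inhibitors were then 0.16 and 0.065 (from 0.30 and 0.20). With 1 library left out they ranged from 0.0058 to 0.089 for the APC/C, from 0.022 to 0.59 for further mitotic genes, from -0.22 to -0.031 for G1/S genes, from 0.080 to 0.20 for cohesin and condensin, from -0.10 to 0.21 for MuvB and NF-Y and from -0.020 to 0.49 for the cell cycle inhibitors. With protein-coding genes only, ANAPC1 (adjusted p = 0.0395) and TK1 (adjusted p = 0.0441) passed as lower, 1 gene in each list, as did 4.19% of all genes in that fit. The cause of these shifts was not tested.

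The numbers 1 and 2 were not shown to pair the libraries: over 12491 genes the deviations of same-numbered libraries had a Pearson r of 0.0094. With the replicate block, 0 members passed as lower and 0 as higher, the lowest adjusted p being 0.259 for HMMR, and the median log2 fold change is 0.26 by construction. Depth is known only approximately, and 2 libraries per genotype limit the precision.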
